A study of Mus musculus with 6 samples.

Results

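The mouse zinc finger genes with symbols Zfp900 to Zfp999 were taken from the deposited counts of all 6 retinal libraries by their symbol, a rule that used no measured value. The rule found 63 genes of 30510 features, with symbols from Zfp930 to Zfp995. A further 2 rows carry a letter after the number (Zfp955a and Zfp955b) and were not members. Retinas came from wild-type mice of the inbred strains DBA/2J (D2; 3 libraries) and C57BL/6J (B6; 3 libraries), aged 60 to 100 days in both strains, with no treatment named. D2 is a pigmented strain that develops a pigmentary glaucoma with age, and B6 is the strain of the mouse reference genome. The RNA integrity number was 9.1 to 9.5. Whether each library is a different mouse is not said in the labels, and the p-values below reflect library-to-library spread, which could be technical in part.

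Most genes named in this way encode proteins with a row of C2H2 zinc fingers, each of which can contact a short stretch of DNA, and many also carry a KRAB domain. In the textbook pathway the KRAB domain binds the co-repressor TRIM28, which brings in the histone methyltransferase SETDB1 and heterochromatin proteins, and the bound DNA, often an endogenous retrovirus, is silenced. The genes multiply by tandem duplication, so a cluster can hold many near-identical copies and can differ between strains of one species. Their part in the adult retina is little described. The comparison asked which of them differ in transcript level between D2 and B6 retina.

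All 63 symbols matched a gene of GENCODE M21 (GRCm38), 62 annotated as protein coding and Zfp939 as a transcribed pseudogene. They lay on 12 chromosomes. Where gaps of at most 1 Mb joined neighbours, 42 of the 63 fell into 5 clusters of 3 or more members. The largest held 16 members on chromosome 4 (145510759 to 147848366), 10 on chromosome 17 (21567008 to 22867134) and 9 on chromosome 2 (175372436 to 178078476). Smaller clusters held 4 members on chromosome 7 (42579783 to 43192109) and 3 on chromosome 8 (69209038 to 69749970). The translated coding sequences of 62 members held 0 to 21 matches of the C2H2 finger pattern, with a median of 11, against a median of 10.5 in 302 other Zfp genes. Zfp974 had the most. Zfp935, Zfp957 and Zfp972 had 0 matches in the longest annotated coding sequence.

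The members shared much of their sequence with other genes. A median of 32.7% of the 31-base words of a member's transcripts also occurred in another gene, against 2.47% in 307 other Zfp symbols. All of the words of Zfp967 and Zfp969, at 100 bases as at 31, occurred elsewhere, in both cases in their chromosome 2 neighbour Zfp968. How reads that match several places were counted is a step the sources used here leave unnamed, so the separate levels of such copies are uncertain. Zfp967 held 713 to 1232 counts per library and Zfp969 held 575 to 1033. Whether these counts came from reads that also match Zfp968 was not tested. D2 reads were set against the B6-derived build mm10, and the effect of D2 sequence variants on the counts was not tested.

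Promoters of 53 members were in the RefSeq table (GRCm38.p6). All are sequences of the B6-derived reference, so they compare genes with each other and not the strains, and D2 promoter sequences were not examined. The members whose levels differed most between the strains are printed here for the 250 bases before the RefSeq start, 5′ to 3′, since they include close relatives that differed in opposite directions. Capitals mark matches, on either strand, of GGGCGG (the GC box), CCAAT and TATAAA. On chromosome 4, Zfp984 (chr4:147809789-147810038, minus strand) and Zfp982 (chr4:147492167-147492416, plus strand) were lower in D2, and Zfp980 (chr4:145670447-145670696, plus strand) and Zfp981 (chr4:146514670-146514919, plus strand) were higher in D2. The RefSeq start of Zfp981 lies 12893 bases inside the GENCODE gene.
Zfp984: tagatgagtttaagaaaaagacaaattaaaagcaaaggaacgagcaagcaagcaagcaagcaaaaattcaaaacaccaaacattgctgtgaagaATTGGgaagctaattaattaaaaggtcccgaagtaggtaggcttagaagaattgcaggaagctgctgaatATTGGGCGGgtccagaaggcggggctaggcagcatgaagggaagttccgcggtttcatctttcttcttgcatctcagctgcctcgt
Zfp982: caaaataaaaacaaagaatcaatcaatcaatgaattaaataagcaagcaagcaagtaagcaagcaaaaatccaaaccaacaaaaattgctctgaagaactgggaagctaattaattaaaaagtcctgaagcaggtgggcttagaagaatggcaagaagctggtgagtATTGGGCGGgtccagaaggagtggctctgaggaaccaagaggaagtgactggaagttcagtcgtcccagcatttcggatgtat
Zfp980: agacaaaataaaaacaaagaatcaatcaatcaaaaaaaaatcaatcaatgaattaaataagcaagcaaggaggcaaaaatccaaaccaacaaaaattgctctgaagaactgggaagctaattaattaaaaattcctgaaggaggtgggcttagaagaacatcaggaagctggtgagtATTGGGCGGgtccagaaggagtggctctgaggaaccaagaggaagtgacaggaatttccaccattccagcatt
Zfp981: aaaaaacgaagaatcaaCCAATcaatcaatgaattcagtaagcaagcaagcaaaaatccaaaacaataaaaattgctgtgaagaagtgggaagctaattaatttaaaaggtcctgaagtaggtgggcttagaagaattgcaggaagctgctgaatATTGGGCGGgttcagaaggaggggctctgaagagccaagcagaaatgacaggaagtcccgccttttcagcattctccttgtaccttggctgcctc

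All 4 sequences contain ATTGGGCGG, in which an inverted CCAAT overlaps a GC box, a word chosen after the sequences were seen. It was present in 9 of 53 member promoters (17%), among them 7 of the chromosome 4 cluster, in 1.18% of 254 other Zfp promoters and in 0.255% of 27025 gene promoters. These 4 promoters were 70% to 81.7% identical to each other, and among them Zfp980 and Zfp982, which moved in opposite directions, were the closest pair. CCAAT alone was found in 75.5% of member promoters, against 44.5% of other Zfp promoters and 34.5% of all. GGGCGG was found in 32.1% of member promoters, 42.9% of other Zfp promoters and 32.9% of all. TATAAA was in 0 of 53 member promoters, 6.69% of other Zfp promoters and 13% of all.

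On chromosome 2, Zfp970 (chr2:177464492-177464741, plus strand) was much lower in D2, and its relative Zfp966 (chr2:175931101-175931350, minus strand) slightly lower. Their promoters are printed for comparison and were 95.3% identical. Each held 2 matches of CCAAT and 0 of GGGCGG.
Zfp970: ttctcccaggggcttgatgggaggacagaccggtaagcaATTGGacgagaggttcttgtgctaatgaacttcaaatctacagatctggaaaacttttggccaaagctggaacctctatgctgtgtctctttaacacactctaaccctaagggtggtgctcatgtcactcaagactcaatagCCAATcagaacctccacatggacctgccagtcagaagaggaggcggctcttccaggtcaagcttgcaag
Zfp966: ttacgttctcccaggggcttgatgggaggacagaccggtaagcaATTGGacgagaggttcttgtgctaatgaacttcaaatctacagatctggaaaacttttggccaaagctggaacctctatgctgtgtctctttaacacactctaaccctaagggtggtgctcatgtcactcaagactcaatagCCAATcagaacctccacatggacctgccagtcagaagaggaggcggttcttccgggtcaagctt

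The libraries held 29417002 to 34478751 counts in D2 and 31305777 to 43719666 counts in B6. A count of 0 allowed up to 0.087 to 0.102 CPM per D2 library and 0.0686 to 0.0958 CPM per B6 library (3 counts, counting error only). Of the retinal marker lists, rod markers summed to 48024 to 51070 CPM in D2 and 51344 to 52712 CPM in B6, with no listed retinal marker at 0. The 5 cone markers summed to 959 to 1053 CPM in D2 and 1196 to 1205 CPM in B6 (4 lower), the 5 ganglion cell markers to 471 to 506 CPM in D2 and 551 to 653 CPM in B6 (3 lower, 1 higher) and the 3 erythrocyte markers to 97.5 to 197 CPM in D2 and 53.5 to 82.4 CPM in B6 (2 higher). Without overlap between the strains, the Mueller glia (3672 to 4014 CPM in D2 and 4092 to 4407 CPM in B6), horizontal cell (82 to 86.9 CPM in D2 and 92.9 to 96.5 CPM in B6) and microglia sums (21.4 to 22.1 CPM in D2 and 22.7 to 24.3 CPM in B6) were lower in D2. The amacrine (760 to 785 CPM in D2 and 727 to 748 CPM in B6) and endothelial sums (217 to 223 CPM in D2 and 196 to 213 CPM in B6) were higher in D2. Only 1 of 4 Mueller glia, 1 of 3 horizontal cell and 1 of 4 microglia markers changed, each lower. Of the amacrine markers 1 of 5 (Gad2) and of the endothelial markers 1 of 3 (Kdr) changed, both higher. Kdr made up most of the endothelial sum (200 CPM in D2 and 182 CPM in B6). Cldn5 and Pecam1 had log2 fold changes of 0.02 and -0.21 and did not pass. The marker sums moved with strain, and their part in the results was not tested. In whole retina, fewer cells of a type and less RNA per cell cannot be told apart.

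Of the 63 members 56 passed the filter on low counts. Among these 31 changed between D2 and B6 with an adjusted p below 0.05 (the quasi-likelihood test of edgeR, Benjamini-Hochberg adjustment over all 18588 tested features), which is 55.4%, beside 29.7% of all tested features. Higher in D2 were 19 members (33.9%, beside 14.5% of all), and lower were 12 (21.4%, beside 15.3% of all). A change of 2-fold or more was found in 8 members, 5 higher and 3 lower (14.3%, beside 4.81% of all). The other Zfp symbols gave 91 of 294 (31%), 61 higher and 30 lower, with 2.38% at 2-fold or more. The median absolute log2 fold change was 0.24 in the members, 0.11 in the other Zfp symbols and 0.13 in all features. The median signed log2 fold change was 0.05 in the members, 0.05 in the other Zfp symbols and 0.00 in all features. The 3 libraries of one strain lay wholly above those of the other in 34 of the 56 (60.7%, beside 51.4% of the other Zfp symbols and 42.3% of all). Members of one cluster are not independent of each other, and the difference between these shares was not tested.

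**Figure D1:**
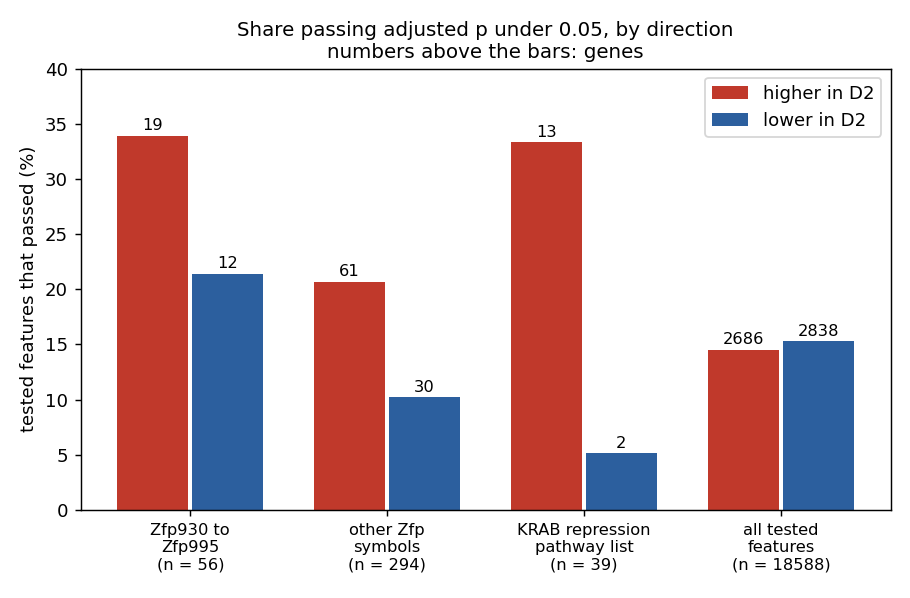
Bars give the percentage of tested features with an adjusted p under 0.05, higher in D2 (red, left) or lower in D2 (blue, right), for the 56 members, 294 other Zfp symbols, 39 genes of the repression pathway and all 18588 features, with gene counts above. The members reached 33.9% higher and 21.4% lower, beside 14.5% and 15.3% of all features. Zfp57, Zfp568, Zfp708 and Zfp809 are in both the pathway list and the other Zfp symbols.

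Most of the large changes lay in the clusters on chromosomes 4 and 2, and so did many of the changed members. The 20 tested members of these clusters held 17 of the 31 changed members and 7 of the 8 that changed by 2-fold or more, with a median absolute log2 fold change of 0.47. The 17 count Zfp965 to Zfp969 as separate changes, though 93.9% to 100% of the words of each were shared with some other gene. Without Zfp967 and Zfp969, 29 members changed, among them all 11 tested in the chromosome 4 cluster and 4 of 7 in the chromosome 2 cluster. Whether the remaining members with shared words changed separately was not tested. Of the 36 tested members outside these clusters 14 changed (38.9%, beside 29.7% of all features), 11 higher and 3 lower in D2. Their median absolute log2 fold change was 0.15, and a single member, Zfp949, was at 2-fold or more.

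**Figure D2:**
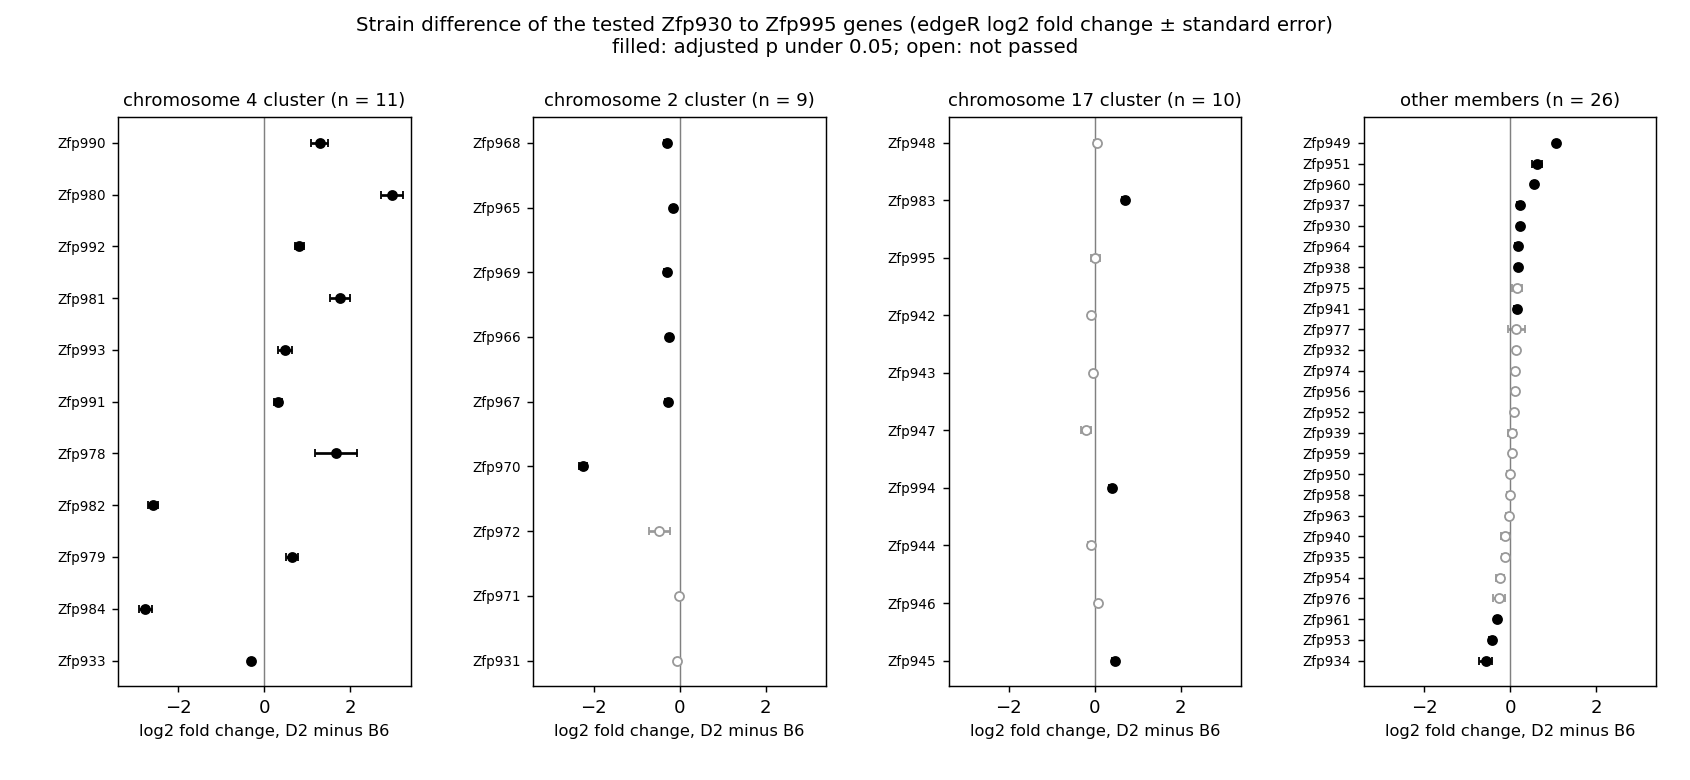
Points give the log2 fold change (D2 minus B6) of the 56 tested members with its standard error, filled where the adjusted p was under 0.05. The chromosome 4, 2 and 17 clusters run down each panel in chromosome order, and the other members are sorted by fold change. All 11 tested chromosome 4 members passed, from -2.77 for Zfp984 to 2.97 for Zfp980, while 7 of 10 chromosome 17 members did not.

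In the chromosome 4 cluster all 11 tested members changed, 8 higher and 3 lower in D2. These counts depend in part on the filter, which keeps a gene that is high enough in the libraries of either strain alone. Zfp980 (0.193 to 0.289 CPM in B6) and Zfp978 (0.161 to 0.433 CPM in B6) passed it through their D2 libraries. The untested members Zfp985 to Zfp989 all had fewer counts per depth in D2, at 0.265 to 0.729 times the B6 level. Zfp984 (147753974 to 147809788, minus strand) had 24, 45 and 57 counts in the D2 libraries, against 403, 373 and 265 counts in the B6 libraries. Its level was 1.29 ± 0.413 CPM in D2 and 8.94 ± 0.400 CPM in B6 (SD, n = 3 each), 6.84-fold lower in D2 (log2 fold change -2.77 ± 0.15 SE, edgeR adjusted p = 2.83e-09). The highest D2 library, at 1.64 CPM, lay far below the lowest B6 library, at 8.52 CPM. Zfp982 (147492417 to 147513486, plus strand), described in mouse embryonic stem cells, had 66, 63 and 80 counts in D2, against 591, 594 and 344 counts in B6. Its level was 2.18 ± 0.207 CPM in D2 and 13 ± 1.72 CPM in B6 (SD, n = 3 each), 6-fold lower in D2 (log2 fold change -2.59 ± 0.12 SE, edgeR adjusted p = 3.74e-10). The groups were widely apart here too. Of the 31-base words of Zfp982, 29.7% were shared, and 3.06% at 100 bases, while Zfp984 shared 68.8% and 30.9%, so the level of Zfp984 is uncertain.

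In the same cluster Zfp980 (145670685 to 145704441) had the largest rise among the members. Its counts were 68, 71 and 57 in D2, against 12, 12 and 6 in B6. Its level was 2.06 ± 0.374 CPM in D2 and 0.253 ± 0.0525 CPM in B6 (SD, n = 3 each), 7.85-fold higher in D2 (log2 fold change 2.97 ± 0.26 SE, edgeR adjusted p = 4.05e-07). All D2 libraries were several times above all B6 libraries, at a low level in both. Of the words of Zfp980 82.8% were shared, and 45.6% at 100 bases, so its level is uncertain. It shared 69.8% with Zfp600, a zinc finger gene of the same cluster outside the symbol range. Zfp600 rose as well (2.16 CPM in D2 and 0.178 CPM in B6, log2 fold change 3.56 ± 0.34, edgeR adjusted p = 1.26e-06).

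Zfp981 (146502027 to 146539395) also rose, with 61, 84 and 69 counts in D2, against 30, 35 and 12 counts in B6 (2.23 ± 0.314 CPM in D2 and 0.641 ± 0.233 CPM in B6; 3.37-fold, edgeR adjusted p = 3.73e-05). Of the words of Zfp981 59.9% were shared, and 12.2% at 100 bases, so its level is uncertain. Its closest relative by shared words (44.8%) was Rex2, in the same cluster, at 1.88 CPM in D2 and 0.187 CPM in B6 (log2 fold change 3.29 ± 0.27, edgeR adjusted p = 1.85e-07). The libraries of the strains did not overlap in either gene. Zfp990 (145510759 to 145539188) had 56, 57 and 61 counts in D2, against 27, 35 and 24 counts in B6, and was 2.43-fold higher in D2 (edgeR adjusted p = 0.000134). Its D2 libraries were close together and all above the B6 libraries. Of the words of Zfp990 49.4% were shared, and 3.6% at 100 bases. Zfp978 (147361303 to 147391004) passed the test with overlapping libraries: it had 28, 42 and 11 counts in D2, against 8, 18 and 5 counts in B6 (log2 fold change 1.66 ± 0.48, edgeR adjusted p = 0.0156, range over the alternatives 0.000748 to 0.108). D2 replicate 3 lay below B6 replicate 2 in CPM. Of the words of Zfp978 85.5% were shared, 63.2% with Zfp600, and 60.5% at 100 bases, so its level is uncertain. Its call was lost without D2 replicate 2 (adjusted p = 0.108) or B6 replicate 1 (0.0611), and its log2 fold change was 2.25 without B6 replicate 2.

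**Figure D3:**
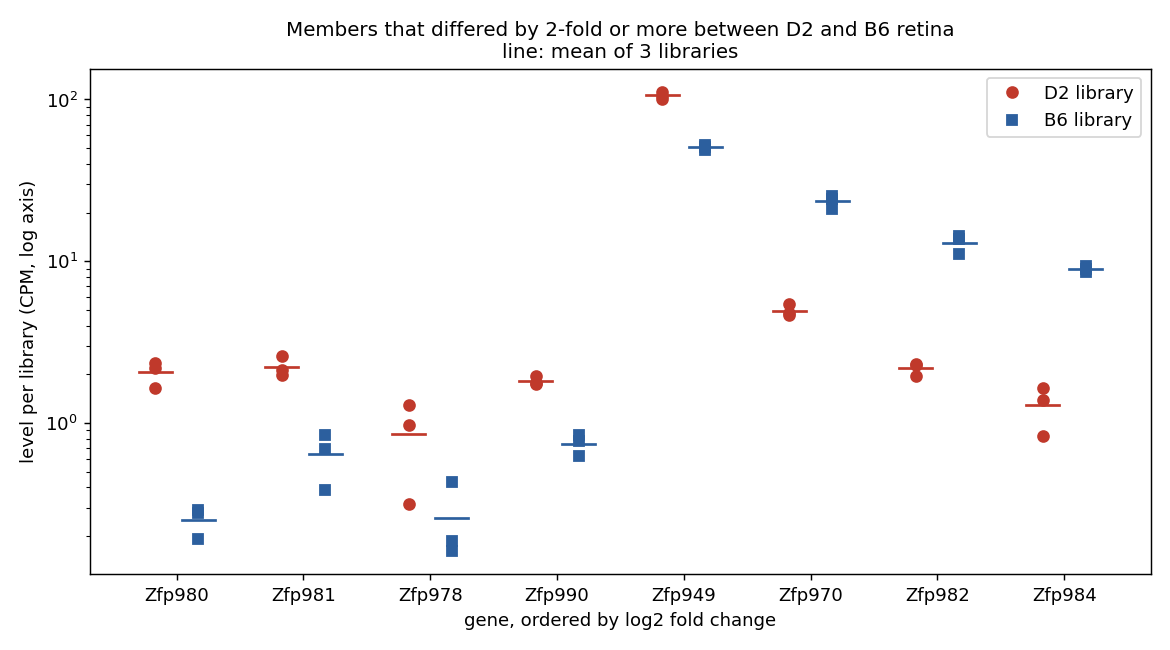
Level per library in CPM on a log axis for the 8 members that changed by 2-fold or more, with D2 libraries as red circles left of B6 libraries as blue squares and a line at each mean. The strains overlap in Zfp978 alone, and Zfp949 lies at 101 to 112 CPM in D2 and 48.6 to 52.6 CPM in B6.

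Zfp979 (147611937 to 147642513, minus strand) is listed under the older symbol Ssm1b, the strain-specific modifier through which the B6 background brings DNA methylation to a transgene that stays unmethylated on a D2 background. It had 113, 118 and 152 counts in D2, against 115, 117 and 67 counts in B6. After scaling for depth that was 3.97 ± 0.376 CPM in D2 and 2.54 ± 0.346 CPM in B6 (SD, n = 3 each), 1.55-fold higher in D2 (log2 fold change 0.63 ± 0.14 SE, edgeR adjusted p = 0.00236). The lowest D2 library (3.63 CPM) was above the highest B6 library (2.82 CPM). Of its words 32.4% were shared, 22.5% with Zfp600. Its promoter was 89% identical to that of Zfp980.

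Zfp992, Zfp993 and Zfp991, in the same cluster, share sequence with each other and rose in D2. Zfp992 had 15.8, 18.0 and 19.8 CPM in D2, against 12, 10.4 and 7.94 CPM in B6 (1.75-fold higher, edgeR adjusted p = 6.52e-05). Zfp993 had 7.52, 10.4 and 10.2 CPM in D2, against 8.46, 6.72 and 4.95 CPM in B6 (log2 fold change 0.47 ± 0.16, edgeR adjusted p = 0.0336). Zfp991 had 15.6, 18.5 and 18.3 CPM in D2, against 16.5, 13.9 and 11.5 CPM in B6 (log2 fold change 0.31 ± 0.10, edgeR adjusted p = 0.0316). In all 3, D2 replicate 1 was the lowest D2 library, and B6 replicate 1 the highest and B6 replicate 3 the lowest B6 library. The strains overlapped in Zfp993 and Zfp991, and Zfp993 lost its call under the DESeq2 Wald test (0.228). Both lost it without D2 replicate 2 (0.134 and 0.12) or D2 replicate 3 (0.107 and 0.0971), and without B6 replicate 2 (0.094 and 0.0949) or B6 replicate 3 (0.102 and 0.0981). Over the alternatives the adjusted p of Zfp993 ranged from 0.00338 to 0.228 and that of Zfp991 from 0.00174 to 0.12. Zfp993 shared 86.9% of its words with Zfp991.

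Zfp933 (147822986 to 147848366, minus strand), at the end of the cluster next to Zfp984, was its most abundant member by counts and shared only 10% of its words. It fell to 46.6, 45.9 and 44.8 CPM in the D2 libraries, against 59.3, 56.7 and 54.6 CPM in B6 (log2 fold change -0.31 ± 0.04 SE, edgeR adjusted p = 3.97e-05). The groups did not overlap. Summed over the 16 members, the cluster gave 100, 108 and 108 CPM in D2, against 125, 118 and 103 CPM in B6. The summed levels of the strains overlapped, while every tested member changed.

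Besides the members, 6 other tested features lay within the chromosome 4 span, of which Zfp600 and Rex2 were higher and Gm16503 was lower in D2 by 2-fold or more. Gm16503 lies between Zfp982 and Zfp985, at 0.546 CPM in D2 and 2.20 CPM in B6 (log2 fold change -1.99 ± 0.20, edgeR adjusted p = 2.05e-06).

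The other 5 chromosome 4 members, Zfp985 to Zfp989, were too low to be tested, with 7 to 16 counts over the 3 D2 libraries and 14 to 55 counts over the 3 B6 libraries. Zfp987 had 3, 2 and 7 counts in D2, against 7, 10 and 3 counts in B6. Zfp988 had 4, 4 and 4 counts in D2, against 20, 26 and 9 counts in B6, without overlap in CPM. Per depth, Zfp988 in D2 was at 0.265 times its B6 level (95% interval 0.129 to 0.501, counting error only). Zfp986 was at 0.486 times (0.254 to 0.887). Zfp985, Zfp987 and Zfp989 were at 0.607 (0.207 to 1.61), 0.729 (0.325 to 1.56) and 0.511 times (0.194 to 1.22). With no filter the edgeR adjusted p was 0.00214 for Zfp988 and 0.126 for Zfp986. Zfp988 was named after its values were seen.

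On chromosome 2 the members ran in one direction: all 9 were tested, all 9 had a negative fold change, 6 were lower in D2 and 3 did not pass. Zfp970 (177464733 to 177478129, plus strand) stood apart. It had 138, 176 and 161 counts in D2, against 907, 1006 and 787 counts in B6. Its level was 4.94 ± 0.413 CPM in D2 and 23.5 ± 2.26 CPM in B6 (SD, n = 3 each), 4.74-fold lower in D2 (log2 fold change -2.24 ± 0.09 SE, edgeR adjusted p = 5.73e-11). Beside it Gm14403 (177498215 to 177509763), not a member, had 0.745 CPM in D2 and 8.69 CPM in B6 (log2 fold change -3.53 ± 0.14, edgeR adjusted p = 8.03e-11). Zfp970 shared 67.9% of its 31-base words, most with Gm14288, and 17.4% of its 100-base words, so its level is uncertain.

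The members Zfp965 to Zfp969 moved by small and similar amounts, with log2 fold changes of -0.16 to -0.30. They are not all copies of each other. Zfp966 shared 66.6% of its words with Zfp968, and the closest relative of Zfp965 by shared words was Zfp973 (83.7%). Zfp968 (175372436 to 175384201) had 38.8, 40.8 and 36.2 CPM in D2, against 43.1, 48.7 and 51.1 CPM in B6 (log2 fold change -0.30 ± 0.06 SE, edgeR adjusted p = 0.00156). Zfp966 had 41.1, 44.1 and 37.8 CPM in D2, against 44.3, 49.5 and 51.7 CPM in B6 (-0.24 ± 0.06, adjusted p = 0.00827 by edgeR). Zfp965 had 40.5, 44.2 and 40.7 CPM in D2, against 44.8, 46.0 and 49.1 CPM in B6 (-0.16 ± 0.05, adjusted p = 0.0249 by edgeR, range over the alternatives 0.01 to 0.095). The strains did not overlap in any of these, but in Zfp966 the highest D2 and the lowest B6 library were 44.1 and 44.3 CPM. The call of Zfp965 was lost without D2 replicate 1 (0.0913), D2 replicate 3 (0.095) or B6 replicate 3 (0.086). Zfp967 and Zfp969 (-0.28 ± 0.07 and -0.30 ± 0.07) have no word that is not also in Zfp968, so their changes cannot be told apart from that of Zfp968. Without these copies 29 of 54 tested members changed (53.7%), 19 higher and 10 lower in D2, and 4 of 7 on chromosome 2, all lower.

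The sum over Zfp965 to Zfp969 was 165, 176 and 156 CPM in D2, against 182, 199 and 211 CPM in B6. The sum over all 64 features in the chromosome 2 span, which takes in all copies listed there, was 1377, 1479 and 1382 CPM in D2, against 1518, 1572 and 1621 CPM in B6, a ratio of 0.9 between the means. A read counted in several copies would enter this sum several times. Some copies had nearly equal counts: Gm4724 had 3323, 3955 and 4158 in D2 and Gm14308 had 3314, 3946 and 4112 in D2. Without Zfp970 and Gm14403 the ratio was 0.915. The strains did not overlap in these sums. Of 41 tested features there that are not members, 9 were lower and 0 higher in D2, beside 15.3% lower and 14.5% higher of all features. At the far end of the cluster Zfp971 and Zfp931 had log2 fold changes of -0.01 and -0.06 and Zfp972 of -0.47, none past the threshold (edgeR adjusted p = 0.906, 0.383 and 0.165).

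**Figure D4:**
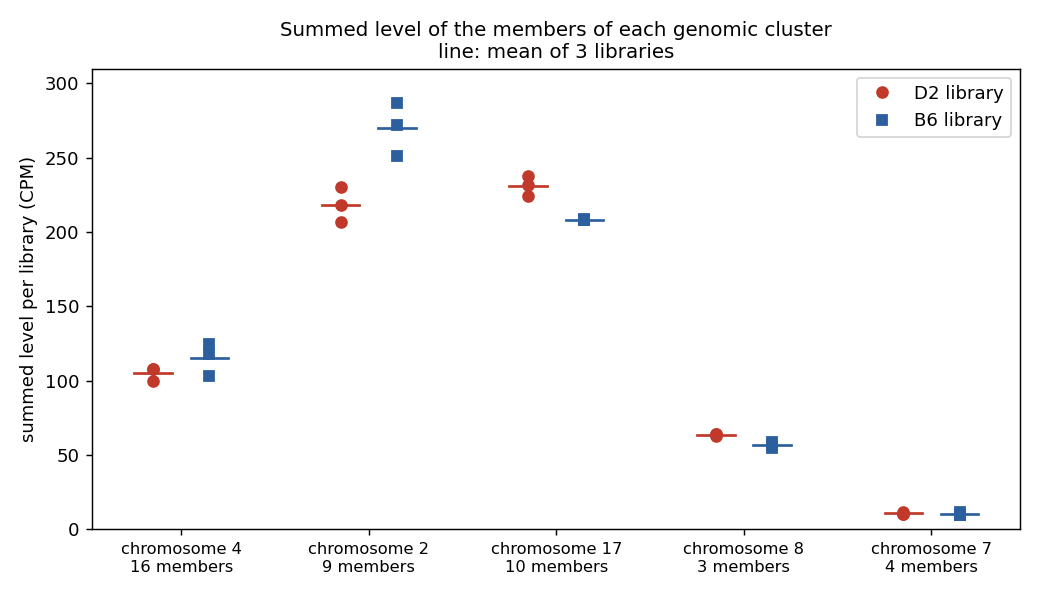
Summed level in CPM of the members of each cluster in each library, D2 as red circles left of B6 as blue squares, with a line at each mean. The chromosome 2 sums are 207 to 230 CPM in D2, all below 251 to 287 CPM in B6, and the chromosome 4 sums overlap between the strains.

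In the chromosome 17 cluster 3 of 10 members rose in D2, 0 fell and 7 did not pass, a share near the 29.7% of all features. Zfp983 (21650624 to 21664966) had 20.5, 21.7 and 21.8 CPM in D2, against 12.9, 13.5 and 12.9 CPM in B6 (1.63-fold higher; log2 fold change 0.70 ± 0.06 SE, edgeR adjusted p = 1.39e-07). Zfp945 (22846697 to 22867134), which shared 1.69% of its words, had 35.7, 35.5 and 35.8 CPM in D2, against 26.7, 26.3 and 24.6 CPM in B6 (1.38-fold higher, adjusted p = 1.7e-06 by edgeR). Zfp994 (22197265 to 22225616) had 30.6, 34.4 and 32.6 CPM in D2, against 25.8, 24.1 and 24.8 CPM in B6 (1.31-fold higher, edgeR adjusted p = 4.12e-05). In these 3 every D2 library lay above every B6 library. Between them Zfp995, Zfp942, Zfp943, Zfp947 and Zfp944 did not pass, with log2 fold changes of -0.21 to 0.01, nor did Zfp948 (0.06) or Zfp946 (0.08). Of 7 other tested features there, Zfp760 (log2 fold change 0.24 ± 0.04, edgeR adjusted p = 0.000656) and Zfp229 (0.14 ± 0.05, 0.028) were higher and Zfp758 (-0.34 ± 0.04, 1.95e-05) was lower in D2. The cluster members summed to 224, 238 and 232 CPM in D2, against 208, 209 and 208 CPM in B6.

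Outside the clusters Zfp949 (chromosome 9, 88548020 to 88571061, plus strand) showed the clearest difference. It had 3026, 3633 and 3512 counts in D2, against 2187, 2018 and 1635 counts in B6. Its level was 106 ± 5.40 CPM in D2 and 50.6 ± 1.99 CPM in B6 (SD, n = 3 each), 2.1-fold higher in D2 (log2 fold change 1.07 ± 0.04 SE, edgeR adjusted p = 1.1e-10). Only 1.34% of its 31-base words and 0% of its 100-base words occurred in another gene. The lowest D2 library (101 CPM) was far above the highest B6 library (52.6 CPM).

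Zfp960 (chromosome 17, 17064113 to 17089628, plus strand) was the most abundant member by its mean over both strains, and in each strain the highest per length, at 38.3 CPM per kilobase of exon in D2 and 26.1 in B6. It had 100, 102 and 104 CPM in D2, against 71.0, 66.3 and 71.4 CPM in B6 (1.47-fold higher; log2 fold change 0.56 ± 0.04 SE, edgeR adjusted p = 3.11e-08). The strains were far apart relative to their spread. Of its words 89.2% were shared, 86.8% with Zfp97, and 68.3% at 100 bases, so the level of Zfp960 is uncertain.

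Among the other single members Zfp951 on chromosome 5 had 5.86, 6.37 and 5.50 CPM in D2, against 3.31, 4.07 and 4.08 CPM in B6 (1.55-fold higher, edgeR adjusted p = 0.000668). The rises of Zfp937 (log2 fold change 0.24), Zfp930 (0.23), Zfp938 (0.18), Zfp964 (0.18) and Zfp941 (0.16) were smaller. Zfp941 was at the threshold (edgeR adjusted p = 0.0493, range over the alternatives 0.0142 to 0.165) and lost its call in 11 of 14 alternatives, among them each of those without a library except B6 replicate 1. Zfp964 lost its call under the DESeq2 Wald test (0.115), without D2 replicate 1 (0.191) or 2 (0.089) and without B6 replicate 1 (0.0883), 2 (0.0666) or 3 (0.0689), and Zfp937 and Zfp938 lost theirs without B6 replicate 2 (0.0728 and 0.0674). Zfp930 and Zfp964 lie in the chromosome 8 cluster with Zfp963, which did not pass. Of 5 other tested features in that cluster, Gm7697 and Gm9495 were lower in D2 (log2 fold changes -0.65 ± 0.18 and -0.56 ± 0.18, edgeR adjusted p = 0.0123 and 0.028), and Zfp868 and Zfp869 were higher (log2 fold changes 0.20 ± 0.06 and 0.18 ± 0.05, edgeR adjusted p = 0.0162 and 0.0164).

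Lower in D2 were Zfp953 and Zfp934 on chromosome 13 and Zfp961 on chromosome 8. Zfp953 had 10.1, 11.4 and 9.78 CPM in D2, against 13.6, 14.3 and 14.2 CPM in B6 (1.35-fold lower; log2 fold change -0.43 ± 0.07 SE, edgeR adjusted p = 0.000313). Zfp961 (71951038 to 71993792) had 19.7, 21.6 and 21.5 CPM in D2, against 24.7, 25.1 and 27.7 CPM in B6 (log2 fold change -0.30 ± 0.06, edgeR adjusted p = 0.000961). The strains did not overlap in either. Of the exonic bases of Zfp961 4.18% overlap Cyp4f18 on the opposite strand, and whether strand was used in the counting is not stated. Other changed members overlap genes on the same strand. The shares include 9.68% for Zfp984 (Gm20707) and 5.47% and 4.77% for Zfp953 (Gm28044 and Gm28041). For Zfp983 the share is 5.35% (CAAA01141682.1) and for Zfp941 5.32% (Gm45785). Zfp934 had 1.77, 2.24 and 2.39 CPM in D2, against 2.68, 3.28 and 3.67 CPM in B6 (log2 fold change -0.57 ± 0.16, edgeR adjusted p = 0.014), and lost its call without D2 replicate 1 (0.0592) or B6 replicate 3 (0.0557).

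The 25 tested members that did not pass had log2 fold changes of -0.47 to 0.16 and adjusted p values of 0.057 to 0.969 by edgeR. In 6 of the 25 the strains' libraries did not overlap, beside 19% of all 13064 tested features that did not pass. Zfp932, which with its relative Gm15446 binds and represses endogenous retroviruses in mouse embryonic stem cells, was closest to the threshold: it had 38.9, 41.0 and 39.6 CPM in D2, against 33.5, 37.8 and 37.6 CPM in B6 (log2 fold change 0.14 ± 0.05, edgeR adjusted p = 0.057). Zfp974, one of the 6 most abundant members by counts, had 47.2, 46.3 and 45.8 CPM in D2, against 41.8, 44.6 and 42.6 CPM in B6 (0.11 ± 0.04, adjusted p = 0.0593 by edgeR). In both the D2 libraries were all above the B6 libraries. Zfp936 and Zfp957 were not tested, at 11 and 10 counts over the 3 D2 libraries and 4 and 31 counts over the 3 B6 libraries.

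The share of changed members was set out by shared sequence. Of 34 tested members with 20% or more shared words 20 changed (58.8%), with a median absolute log2 fold change of 0.29. Of 22 with under 20% shared words 11 changed (50%), 8 higher and 3 lower, with a median of 0.17. The corresponding shares of the other Zfp symbols were 45.5% of 44 and 28.4% of 250. Of the 16 with 50% or more shared words 13 changed (81.2%), with a median of 0.39 and 5 at 2-fold or more. Over all features 29.7% changed. The 2-fold changes were 7 in the 20% or more class of members and 1, Zfp949, in the class under 20%. The difference between the classes was not tested.

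**Figure D5:**
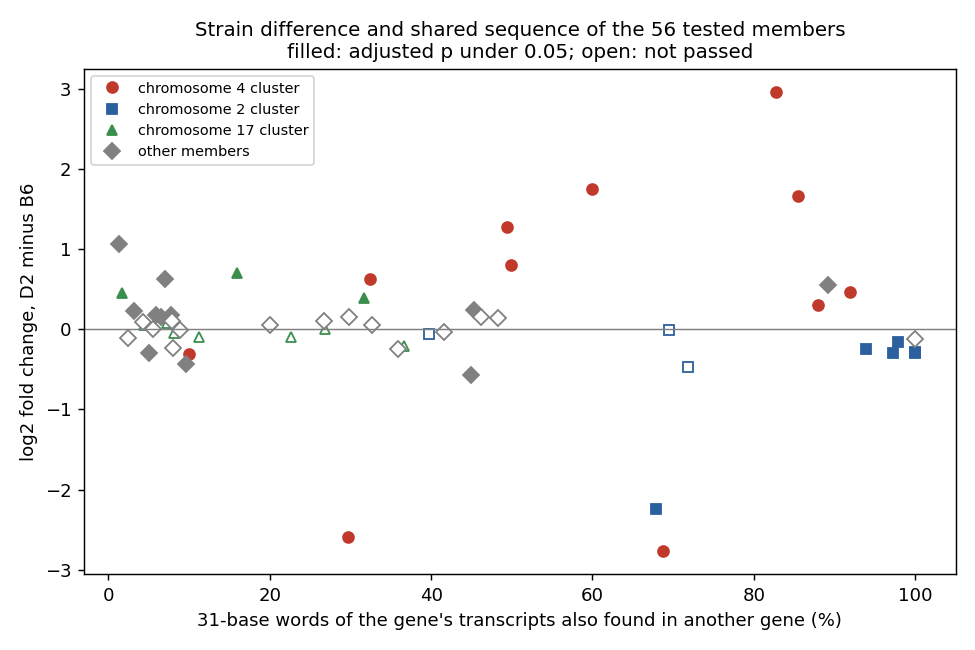
Each point is 1 of the 56 tested members, by the percentage of its 31-base words also found in another gene and its log2 fold change (D2 minus B6), filled where the adjusted p was under 0.05. The chromosome 2 members Zfp965 to Zfp969 sit between 93.9% and 100% with small negative values, while Zfp949, at 1.34%, has a log2 fold change of 1.07.

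Genes of the KRAB repression pathway that changed mostly did so by small amounts. Of 39 listed and tested 15 changed (38.5%, beside 29.7% of all features), 13 higher and 2 lower in D2, and 14 of the 15 by less than 1.5-fold. The list takes in the zinc finger genes Zfp57, Zfp568, Zfp708 and Zfp809, which are also among the other Zfp symbols. Zfp568 (log2 fold change 0.47) and Zfp57 (0.46) were higher, and Zfp809 did not pass. Zfp708 (-0.31), with 95.6% of its words shared, was lower. The median log2 fold change of the list was 0.07, beside 0.00 for all features. Trim28, the co-repressor bound by the KRAB domain, had 146, 142 and 144 CPM in D2, against 130, 124 and 130 CPM in B6 (1.12-fold higher; log2 fold change 0.17 ± 0.03 SE, edgeR adjusted p = 0.0019). Setdb1, the methyltransferase that TRIM28 recruits, had 58.5 ± 2.51 CPM in D2 and 57.7 ± 2.13 CPM in B6 (SD, n = 3 each; edgeR adjusted p = 0.783). The histone methyltransferase gene Suv39h2 (1.35-fold), Pphln1 of the HUSH silencing complex (1.23-fold), the chromatin remodeller gene Chd3 (1.15-fold) and the histone demethylase gene Kdm1a (1.15-fold) were higher in D2, with edgeR adjusted p values of 3.81e-05 to 0.000314. In each of these the strains did not overlap. Atf7ip2, a relative of the SETDB1 partner Atf7ip, had 19, 18 and 22 counts in D2, against 0, 2 and 0 counts in B6, 35.8 times as much per depth in D2 (95% interval for counting error 9.49 to 303; edgeR adjusted p = 1.73e-05). Its B6 counts were all in B6 replicate 2, without which its fitted log2 fold change of 4.89 was 7.39.

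The authors' deposited table held 57 of the members, of which 39 had a false discovery rate under 0.05, 23 with a higher and 16 with a lower scaled mean in D2. Of all 18100 features in the authors' deposited table, 40.9% were under that threshold, 20.1% higher and 20.8% lower in D2. Of the 39 members 30 also passed in the edgeR test of the counts, all in the same direction, and 9 passed in the authors' deposited table only. A further 1, Zfp965, passed in the counts only. Among the 9 were Zfp988 and Zfp932, with false discovery rates of 5.59e-05 and 0.000761 in the authors' deposited table.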

How the data were processed

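Retinal total RNA of 3 D2 and 3 B6 libraries was sequenced from TruSeq stranded total RNA libraries, per the labels' protocols. Tools named in the submitters' processing notes are STAR, SAMtools, FastQC and edgeR, with the build mm10; they name no version, counter, annotation or strand setting. Raw counts per symbol for 30510 features were deposited without normalization, with a table of strain means as scaled expression scores with a false discovery rate, an adjusted p-value whose test is unnamed. Titles assigned the 6 count columns, and 0 sample columns were left out.

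Counts were filtered with filterByExpr at its defaults (18588 features), scaled with TMM factors and tested with edgeR 4.0.16 in R 4.3.3, D2 minus B6, with Benjamini-Hochberg adjustment and a threshold of 0.05. Standard errors were derived from the F statistic. CPM values are TMM-scaled. Coordinates, exons and transcripts came from GENCODE M21 (GRCm38), and shared sequence is the share of a gene's 31-base words, on either strand, that occur in another gene's transcripts. Finger matches are C, 2 to 4 residues, C, 12 residues, H, 3 to 5 residues and H in the longest translated coding sequence. Promoters are RefSeq windows cut to 250 bases, 1 per gene (for members the window nearest the GENCODE start), aligned globally with Biopython 1.88. Named were the members past 2-fold without overlap, the 6 most abundant, up to 4 further changed ones in each direction with the lowest adjusted p, any without counts in 1 strain and 10 or more in each library of the other (there were 0), and of the pathway Trim28, Setdb1 and the 6 changed genes with the lowest adjusted p; 1 gene that this rule names is not reported here, and all others were named after their values were seen. The members, lists and tests were chosen with earlier results of these data known.

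The alternatives used upper quartile or DESeq2 size factors within edgeR, limma-voom (limma 3.58.1), the Wald test of DESeq2 1.42.0, no filter, 1 CPM in 3 libraries, summed transcript rows, the replicate number as a block, each library left out, and cluster gaps of 0.5 and 2 Mb. The test was also checked on simulated data.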

Additional observations from a re-analysis of the deposited data

How the results depend on the processing

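Of the 31 changed members 22 passed in every one of the 14 alternatives that could test them, and 0 changed direction in any. The number called was 29 to 34 under the other normalizations, tests and filters (limma-voom 30, the DESeq2 Wald test 29, no filter 34) and 25 to 30 with a library left out, lowest without B6 replicate 2, where all 25 were among the 31. The number at 2-fold or more was 7 to 10. No scaling moved the median of all features by more than 0.005 on the log2 scale. Same-numbered libraries of the strains deviated together with correlations of 0.135, 0.0657 and -0.0296, and 1 of 3 D2 libraries correlated best with its own number. With 3 libraries per strain, these values cannot decide whether the numbers pair the libraries. The replicate block gave 30 changed members, all among the 31. Of the repression pathway, the number lower in D2 was 2 in the main test, 1 by the DESeq2 Wald test, with no filter and with the replicate block, and 1 to 1 with a library left out; the cause was not tested. The log2 fold change of Setdb1 was 0.02, with -0.01 to 0.05 when a library was left out (-0.01 without D2 replicate 1 and without B6 replicate 2), in each case not past the threshold. Clusters of 3 or more members numbered 5 at gaps of 1 and 2 Mb and 6 at 0.5 Mb. The depth limits Zfp936, Zfp957 and Zfp985 to Zfp989, whose totals of 15 to 67 counts kept them out of the test.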
